A study of Homo sapiens with 6 samples.

Results

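The genes described here encode RNA polymerase I, which transcribes the ribosomal RNA genes (rDNA), and the factors that bring it to the rDNA promoter. They were chosen by name and are RRN3, UBTF, 5 polymerase subunit genes (POLR1A, POLR1B, POLR1C, POLR1D and POLR1E) and 3 genes of the promoter factor SL1 (TAF1A, TAF1B and TAF1C). All 10 were among the 53712 rows of the deposited count table, and all 10 had enough reads to be among the 16873 genes tested. RNA-seq of poly(A) RNA was done on H9 cells, an established line of human embryonic stem cells kept in PXGL medium and called naive in the submitters' design text. One group received an antisense oligonucleotide against LINE-1 retrotransposons (ASO-L1, 3 libraries) and the other a sense oligonucleotide (SO-L1, 3 libraries), each at 25 nM. For the first 24 hours all cells, SO-L1 controls included, also had 0.7 uM trans-ISRIB, 5 uM emricasan and 10 uM of the ROCK inhibitor Y-27632. Of these, trans-ISRIB counters integrated stress response signalling and emricasan inhibits caspases. RNA was taken at 48 hours from unsorted cells, so cells that took up no oligonucleotide can be part of every library. A single cell line was used, and nothing in the labels says that libraries of a group were separate cultures. The p-values therefore measure the spread between these libraries, which may be technical. The sources used here hold no oligonucleotide sequence, so none is shown.

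In the nucleolus, UBTF covers the active rDNA repeats, and SL1, a complex of TBP with the TAF1 proteins, sits at the promoter. RRN3, also called TIF-IA, binds the polymerase and links it to SL1, and growth and nutrient signals act on this step through phosphorylation of RRN3. The polymerase has its own subunits and others shared with RNA polymerases II and III. The study's title names LINE-1, PRC2, nucleolar organisation and the 8-cell-like state, and the question here is whether the messenger RNAs of the rDNA transcription machinery differed after ASO-L1. Ribosomal RNA itself was not analysed here, and no row of the count table is named for a LINE-1 element, so the knockdown was not analysed here either.

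Library totals ran from 23330875 to 31164287 counts. On the first principal component (68.8% of the variance) ASO-L1 and SO-L1 libraries lay apart, and replicate 2 stood apart from replicates 1 and 3 in each. Pluripotency genes were abundant in all libraries. POU5F1 averaged 1136 ± 79.4 CPM (counts scaled to a common library size with TMM factors) after ASO-L1 and 1266 ± 67.7 CPM after SO-L1, SOX2 225 ± 22.2 after ASO-L1 and 246 ± 26.0 CPM after SO-L1, and NANOG 85.0 ± 13.4 after ASO-L1 and 103 ± 1.81 CPM after SO-L1 (SD, n = 3 each). Of 7 tested naive markers 2 rose, TFCP2L1 (log2 fold change 0.47 ± 0.09, adjusted p = 0.00511) and KLF4 (0.72 ± 0.21, 0.0353), and 3 fell, DPPA3 (-0.88 ± 0.16, 0.00382), DNMT3L (-0.47 ± 0.09, 0.00468) and SUSD2 (-0.52 ± 0.10, 0.00502), in edgeR's test. The summed level of the list was 222 to 242 CPM after ASO-L1 and 238 to 247 CPM after SO-L1. Of the other two, DPPA5 had 18.9, 8.95 and 23.1 CPM after ASO-L1, against 40.3, 22.1 and 40.1 CPM after SO-L1, and KLF17 was near 0, at 0.395 ± 0.146 after ASO-L1 and 0.743 ± 0.196 CPM after SO-L1. Of 5 primed markers tested 4 rose (VIM, THY1, DUSP6 and SFRP2), and ZIC2 was not called. The summed level of the 5 was 361 to 462 CPM after ASO-L1 and 165 to 215 CPM after SO-L1. Most of it was VIM, with 282, 360 and 282 CPM after ASO-L1 and 125, 151 and 114 CPM after SO-L1. Of 6 tested trophectoderm markers 2 rose (sums of 26.3 to 43.8 CPM after ASO-L1 and 23.1 to 26.6 CPM after SO-L1), and of 5 tested fibroblast markers 2 rose (sums of 526 to 578 CPM after ASO-L1 and 472 to 532 CPM after SO-L1). The former were CDX2 (1.80 ± 1.29 CPM after ASO-L1, 0.369 ± 0.142 after SO-L1) and TFAP2A (2.32 ± 1.34, 0.940 ± 0.173), both highest in ASO-L1 replicate 2. Most of their list's sum was GATA2 and KRT7, which were not called. The latter were COL1A1 and PDGFRB (1.98 ± 0.549, 1.14 ± 0.103), and most of that sum was COL1A1 and COL1A2, the second not called. With the replicate number as a block, 5 of 5 primed, 3 trophectoderm and 3 fibroblast markers rose, and 4 naive markers (DPPA5 added, adjusted p = 3.21e-07) and 3 of 6 pluripotency genes fell (NANOG 0.00396, LIN28A 0.0301 and POU5F1 0.0391), where without it 0 of 6 pluripotency genes were called. Of all tested genes 18% were called higher and 15.7% lower, and 23.3% and 22.5% with the block. CGA and DCN, defining markers of the trophectoderm and fibroblast lists, had too few reads to be tested, and no marker was at 0 in all libraries. The part of these shifts in the results that follow was not tested. In bulk RNA, fewer cells with a transcript and less of it per cell cannot be told apart.

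After ASO-L1, RRN3, UBTF, POLR1B, POLR1C and POLR1E rose, and none of the 10 genes fell. RRN3 changed by 1.60-fold and the others by 1.16 to 1.29-fold in mean CPM. Genes were tested with the two-sided quasi-likelihood test of edgeR, p-values were Benjamini-Hochberg adjusted over all tested genes, and a call is an adjusted p under 0.05. In either direction 5 of 10 genes were called, against 33.7% of all tested genes. By direction, 5 of 10 were called higher, where 18% of all tested genes were, and 0 of 10 were called lower, where 15.7% were. The median log2 fold change (ASO-L1 over SO-L1) was 0.19 over the 10 genes and -0.01 over all tested genes. The groups' libraries did not overlap for 9 of the 10, against 50.9% of all tested genes. After ASO-L1 7 were higher in this sense and 2 lower, against 25.8% and 25.1% of all tested genes. With the replicate number as a block the count was 6 higher and 1 lower, where 23.3% and 22.5% of all genes were called, since POLR1D (adjusted p = 0.0484) and TAF1B (0.0271) passed as well. The count of called genes was 2 without SO-L1 replicate 1 or SO-L1 replicate 3 and 1 without replicate 1 or replicate 3 of both groups, RRN3 being called in each of these. In the same fits 18.6%, 17.5%, 6.95% and 16.9% of all tested genes were called in either direction, in the order given. The share of the 10 genes was thus close to that of all genes called in either direction. All members called in these fits were higher. Of all tested genes, 1718 of 17016, 1601 of 17019, 757 of 17011 and 1611 of 16714 were called higher there.

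**Figure D1:**
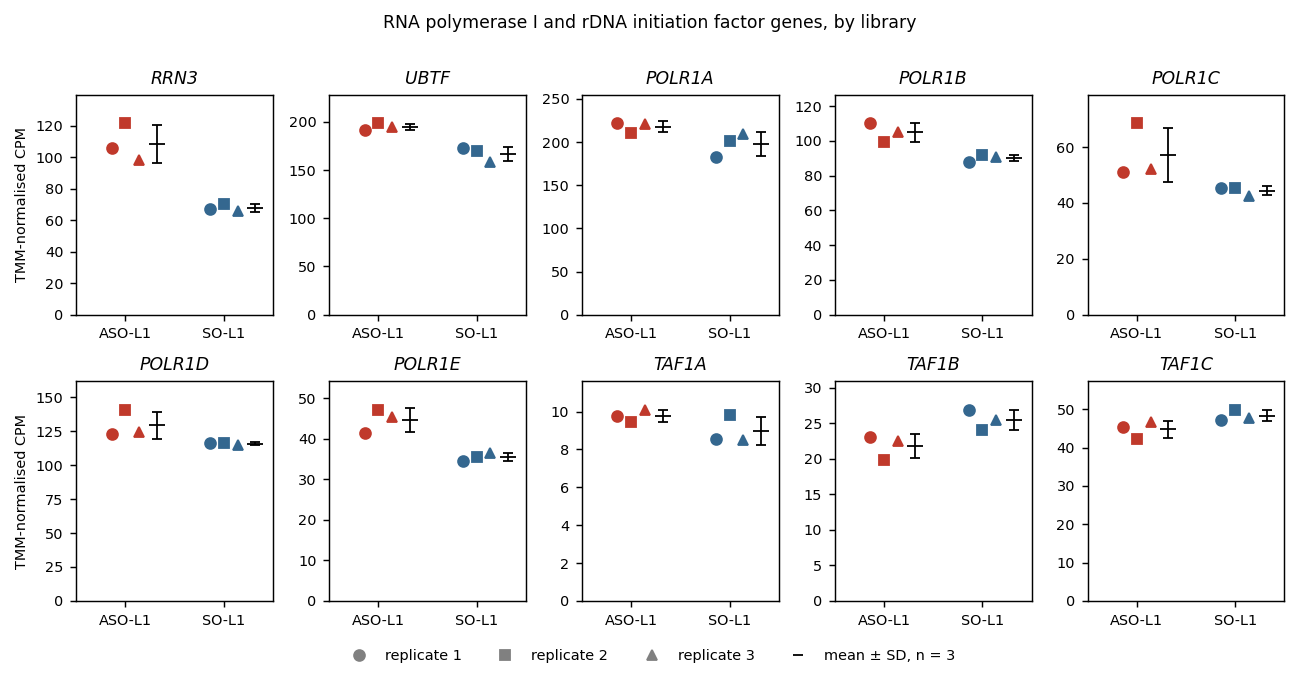
TMM-normalised CPM (y axis, from 0) of the 10 genes in each ASO-L1 and SO-L1 library, with marker shapes for the replicate numbers and a bar for the mean ± SD (n = 3). The ASO-L1 libraries lie above the SO-L1 libraries for RRN3, UBTF and the 5 POLR1 genes and below them for TAF1B and TAF1C, and the groups overlap for TAF1A.

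RRN3, the factor that makes the polymerase competent to initiate, had 106, 121 and 98.1 CPM in ASO-L1 replicates 1, 2 and 3 after ASO-L1, against 67.1, 70.2 and 65.8 after SO-L1 CPM in the SO-L1 replicates. The lowest ASO-L1 library was well above the highest SO-L1 library, and ASO-L1 replicate 2 was the highest of all. The log2 fold change was 0.68 ± 0.08 (SE, 95% interval 0.49 to 0.86, adjusted p = 0.00140). By p-value RRN3 was number 89 of all tested genes, and 8.89% of tested genes had a larger log2 fold change. The log2 difference within replicate numbers 1, 2 and 3 was 0.65, 0.79 and 0.58, so each ASO-L1 library exceeded the SO-L1 library of its number. RRN3 was called under all 16 alternatives tried, with log2 fold changes of 0.59 to 0.74 and adjusted p-values of 1.14e-13 to 0.0432.

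RRN3 has 3 pseudogene copies in the count table, RRN3P1, RRN3P2 and RRN3P3. Of the 50-base windows of the RRN3-201 transcript (3762 bases, GENCODE release 29), 26.8% also occur unchanged in a transcript of a copy, and 19.3% of 100-base windows do. How reads that fit more than 1 place were assigned is not stated, so a share of RRN3 reads could have been split with, or taken from, the copies. RRN3P1 rose, with 4.11 ± 0.725 CPM after ASO-L1 and 2.82 ± 0.271 CPM after SO-L1 (log2 fold change 0.54 ± 0.18, adjusted p = 0.0386). Its call was lost without ASO-L1 replicate 2 (0.106) or 3 (0.0717) or SO-L1 replicate 1 (0.122) or 3 (0.129). RRN3P3 had 7.69 ± 1.32 after ASO-L1 and 5.95 ± 1.13 CPM after SO-L1 (0.37 ± 0.17, 0.118, and 0.0167 with the replicate block), and RRN3P2 had 33 reads in all. The copies held 9.29% to 12.9% of the summed reads of RRN3 and its copies in each library. That sum was 116, 136 and 109 CPM after ASO-L1 and 75.2, 80.6 and 74.0 CPM after SO-L1, a 1.57-fold difference of the means.

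UBTF, the HMG-box protein that marks active rDNA repeats, had 192, 198 and 195 CPM after ASO-L1, against 173, 169 and 159 CPM after SO-L1. The groups were apart, with a narrow spread within each. The log2 fold change was 0.22 ± 0.06 (adjusted p = 0.0172), or 1.17-fold in mean CPM. Its adjusted p was 0.0968 with SO-L1 replicate 3 left out, and 0.0871 and 0.213 with both libraries numbered 1 or both numbered 3 left out, so the call was lost in these fits. Gene counts do not tell apart the splice forms of UBTF. The 7 rows named UBTFL held between 0 and 23 reads each over all libraries and no 50-base window of UBTF-201 occurs in a UBTFL transcript of GENCODE release 29.

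All 5 polymerase subunit genes had higher CPM in each ASO-L1 library than in any SO-L1 library, and 3 of them passed the test. POLR1E, the human counterpart of yeast Rpa49, which works in initiation and elongation, had 41.4, 47.2 and 45.4 CPM after ASO-L1, against 34.6, 35.5 and 36.6 CPM after SO-L1. Its log2 fold change was 0.33 ± 0.08 (adjusted p = 0.0104), the smallest p of the 10 genes after that of RRN3. POLR1C, an assembly subunit shared with RNA polymerase III, had 51.3, 68.5 and 52.0 CPM after ASO-L1, against 45.4, 45.4 and 42.6 CPM after SO-L1. ASO-L1 replicate 2 was the high library of POLR1C, and the log2 fold change of 0.36 ± 0.11 (adjusted p = 0.0274) was 0.22 without that library and 0.23 when both libraries numbered 2 were left out. POLR1B, the second largest subunit, had 110, 99.5 and 105 CPM after ASO-L1, against 88.1, 91.7 and 90.6 CPM after SO-L1 (0.22 ± 0.06, 0.0251). The call of POLR1E was lost without SO-L1 replicate 1 (0.0513), that of POLR1C without SO-L1 replicate 1 (0.0850), 2 (0.0557) or 3 (0.104), and that of POLR1B without ASO-L1 replicate 1 (0.0912) or 3 (0.0643) or SO-L1 replicate 1 (0.0889) or 3 (0.0865). All 3 calls were also lost without replicate 1 or 3 of both groups, and POLR1B with library totals as the only scaling (0.0560) or no filter (0.0576).

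POLR1A, the largest subunit with the catalytic site, had 221, 210 and 221 CPM after ASO-L1, against 182, 201 and 210 CPM after SO-L1. The lowest ASO-L1 library lay just above the highest SO-L1 library, and the log2 fold change of 0.14 ± 0.07 did not pass (95% interval -0.01 to 0.29, adjusted p = 0.133). It was 0.17 and passed without replicate 2 of both groups (0.00794), but was 0.08 without SO-L1 replicate 1 (0.382) and 0.09 when both libraries numbered 1 were left out (0.544). POLR1D, the partner of POLR1C in assembly and likewise shared with RNA polymerase III, had 123, 141 and 124 CPM after ASO-L1, against 117, 116 and 115 CPM after SO-L1. Here too ASO-L1 replicate 2 was the high library, and the log2 fold change was 0.16 ± 0.07 (95% interval 0.01 to 0.31, adjusted p = 0.0972). The value was 0.09 without ASO-L1 replicate 2 (0.210), and likewise 0.09 when both libraries numbered 2 were left out (0.138). Whether the fold changes of the subunit genes differ from each other was not tested.

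None of the 3 SL1 genes among the 10 was called in either direction. TAF1B, which resembles the polymerase II factor TFIIB, had 23.1, 19.8 and 22.5 CPM after ASO-L1, against 26.9, 24.0 and 25.5 CPM after SO-L1. All ASO-L1 libraries were below all SO-L1 libraries, and the log2 fold change was -0.22 ± 0.09 (95% interval -0.43 to -0.02), short of a call (adjusted p = 0.0840, and 0.0258 without replicate 2 of both groups). TAF1C, another SL1 subunit, had 45.4, 42.2 and 46.6 CPM after ASO-L1, against 47.1, 49.8 and 47.8 CPM after SO-L1 (-0.11 ± 0.07, adjusted p = 0.271, and -0.07 without ASO-L1 replicate 2). The groups of TAF1C lay next to each other, with ASO-L1 replicate 3 just below SO-L1 replicate 1. TAF1A had 9.78, 9.43 and 10.1 CPM after ASO-L1, against 8.55, 9.81 and 8.52 CPM after SO-L1, and SO-L1 replicate 2 lay among the ASO-L1 libraries (0.13 ± 0.11, 95% interval -0.12 to 0.38, adjusted p = 0.397). The intervals of TAF1A and TAF1C include 0, which does not show that the genes were unchanged.

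The level of RRN3 relative to each of the other 9 genes was higher in every ASO-L1 library than in any SO-L1 library. For each ASO-L1 and SO-L1 library the log2 ratio of RRN3 to another member was compared between the groups with a two-sided exact permutation test, 9 comparisons in all. The mean log2 ratio to TAF1B was 2.31 after ASO-L1 and 1.41 after SO-L1, and RRN3 had 4.57, 6.12 and 4.37 reads per TAF1B read after ASO-L1, against 2.49, 2.92 and 2.58 after SO-L1. The ratio to UBTF was 0.550, 0.612 and 0.504 after ASO-L1, against 0.388, 0.414 and 0.414 after SO-L1. The smallest difference in mean log2 ratio was 0.32, for POLR1C, and the largest 0.90, for TAF1B, with the groups apart in each of the 9. Every p was 0.1, which is also the smallest that 3 against 3 libraries allow. The adjusted values were 0.1, so none of these differences could pass. For TAF1B and TAF1C the separation follows from the levels above, since RRN3 was higher and they were lower after ASO-L1, without overlap. RRN3 had the largest rise of the genes compared in these libraries, so the ratios are not separate evidence that it rose.

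Levels of different genes were compared per kilobase of exon, with exon lengths from GENCODE release 29, an annotation that need not be the one the authors used. The lengths pool the exons of all annotated transcripts, whether or not these cells use them, so the order of genes depends on them. They were 11210 bases for POLR1D and 4156 for RRN3, and the order with other lengths was not tested. After ASO-L1, UBTF averaged 27.9 ± 0.462 CPM per kb and RRN3 26.1 ± 2.85, and their libraries overlapped. After SO-L1, UBTF averaged 23.9 ± 1.06 CPM per kb and RRN3 16.3 ± 0.540, with no overlap. POLR1A had the highest mean CPM of the 10 genes, 218 after ASO-L1 and 198 after SO-L1, but also the longest pooled exons (13519 bases). Per kb, POLR1E, POLR1B and POLR1A came next after UBTF and RRN3 in both groups. They were at 16.1 to 17.8 CPM per kb after ASO-L1 and 14.2 to 14.6 after SO-L1. Among these 3 genes neighbours in the order overlapped, and they were separate from RRN3 above and POLR1D below in both groups. POLR1D averaged 11.5 ± 0.884 after ASO-L1 and 10.3 ± 0.0784 CPM per kb after SO-L1 and POLR1C 10.3 ± 1.75 after ASO-L1 and 8.01 ± 0.286 after SO-L1, the 2 overlapping after ASO-L1. The 3 SL1 genes among the 10 were at the low end. TAF1D, a further SL1 subunit with 126 CPM after ASO-L1 and 93.9 CPM after SO-L1, was not ranked per kb. TAF1C was at 8.02 ± 0.401 after ASO-L1 and 8.65 ± 0.255 after SO-L1. TAF1B was at 5.36 ± 0.429 after ASO-L1 and 6.27 ± 0.358 after SO-L1. TAF1A was at 3.37 ± 0.115 after ASO-L1 and 3.09 ± 0.255 CPM per kb after SO-L1. TAF1C stood below POLR1C after ASO-L1 and above it after SO-L1.

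**Figure D2:**
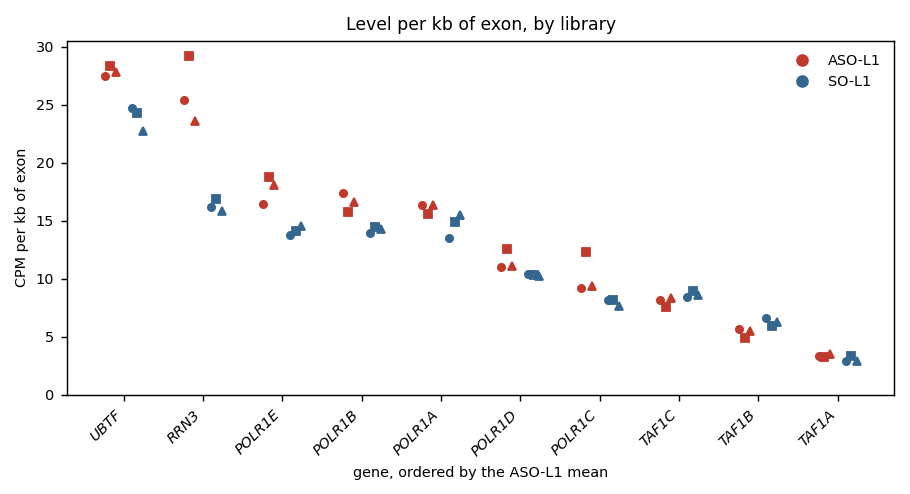
CPM per kilobase of exon (y axis, from 0) of the 10 genes, ordered by their ASO-L1 mean, with each library as a point (circle, square and triangle for replicates 1, 2 and 3). With exon lengths pooled over all annotated transcripts, the RRN3 and UBTF libraries overlap after ASO-L1, and TAF1A is the lowest gene in both groups.

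Some members share exon bases with genes on the opposite strand, which matters if reads were counted without strand, a setting the sources used here do not give. In GENCODE release 29, TAF1C shares 8.07% of its exon bases with DNAAF1 and POLR1C shares 6.27% with XPO5, 2.52% with LRRC73 and 2.32% with YIPF3. UBTF, TAF1A and POLR1C each overlap antisense RNAs by 0.529% to 7.06% of their exon bases. RRN3, POLR1A, POLR1B, POLR1D, POLR1E and TAF1B share no exon base with another annotated gene.

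Promoters of 9 of the 10 genes, all but POLR1E, were found in RefSeq's table for GRCh38.p14, as 300 bases from 250 before to 50 after the start, and 14 starts in all. Shown are the first listed starts of RRN3, with the largest rise, POLR1C and UBTF, which also rose, and TAF1B, which lay lower. Capitals mark CCGGAA on either strand (TTCCGG on the other), the core read by ETS-family factors, and a capital run longer than 6 bases is an overlap or junction of matches.
RRN3, minus strand, chr16:15094286-15094585: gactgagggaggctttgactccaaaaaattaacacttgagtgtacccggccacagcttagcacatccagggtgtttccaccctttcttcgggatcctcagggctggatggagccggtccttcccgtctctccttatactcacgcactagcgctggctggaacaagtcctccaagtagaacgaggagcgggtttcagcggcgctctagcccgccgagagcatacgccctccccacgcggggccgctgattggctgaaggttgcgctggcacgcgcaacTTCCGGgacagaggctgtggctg
POLR1C, plus strand, chr6:43516839-43517138: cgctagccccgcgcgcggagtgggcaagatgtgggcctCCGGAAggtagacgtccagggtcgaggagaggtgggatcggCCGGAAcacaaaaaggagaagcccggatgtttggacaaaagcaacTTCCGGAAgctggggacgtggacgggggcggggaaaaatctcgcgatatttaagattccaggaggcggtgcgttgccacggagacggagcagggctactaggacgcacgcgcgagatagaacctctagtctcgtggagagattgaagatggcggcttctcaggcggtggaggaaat
UBTF, minus strand, chr17:44220833-44221132: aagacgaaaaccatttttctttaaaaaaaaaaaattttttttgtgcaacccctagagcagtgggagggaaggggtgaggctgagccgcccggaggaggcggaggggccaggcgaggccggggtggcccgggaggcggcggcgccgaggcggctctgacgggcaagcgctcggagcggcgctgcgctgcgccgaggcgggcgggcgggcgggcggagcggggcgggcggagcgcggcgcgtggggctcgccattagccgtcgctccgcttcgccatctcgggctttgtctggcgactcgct
TAF1B, plus strand, chr2:9843192-9843491: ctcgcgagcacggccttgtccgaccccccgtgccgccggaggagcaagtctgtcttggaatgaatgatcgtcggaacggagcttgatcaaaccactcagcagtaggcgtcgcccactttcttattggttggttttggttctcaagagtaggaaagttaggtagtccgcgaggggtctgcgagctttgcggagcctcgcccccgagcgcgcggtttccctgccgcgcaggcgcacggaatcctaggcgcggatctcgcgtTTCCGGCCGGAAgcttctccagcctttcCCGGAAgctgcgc

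The letters CCGGAA were in at least 1 promoter of 6 of the 9 genes (RRN3, POLR1B, POLR1C, TAF1A, TAF1B and TAF1C). Counted by promoter, they were in 9 of the 14, against 17.2% of all 35116 promoters in the table. They occur in genes that rose and in genes that did not pass the test, and UBTF, POLR1A and POLR1D have none. Of 5 other motifs searched on both strands, CACGTG (the E-box of MYC and USF) and GCGCATG (part of the NRF1 site) were in 0 of the 14 promoters, against 7.26% and 4.43% of all promoters. CCAAT was found in 7 of the 14 (34.6% of all promoters), GGGCGG in 7 (45%) and TGACG, part of the CREB site, in 3 (24.6%). Starts of 1 gene can share bases, so the 14 are not independent. A match is a run of letters and does not show that a factor binds there.

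Of 6 other tested genes of the RNA polymerase I core 2 rose and 0 fell, where 18% and 15.7% of all tested genes did. In all, 5 were higher in every ASO-L1 library than in any SO-L1 library, against 25.8% of all tested genes. The median log2 fold change was 0.23. TAF1D, a further SL1 subunit whose gene also hosts small nucleolar RNAs, had 126 ± 10.0 CPM after ASO-L1 and 93.9 ± 3.87 CPM after SO-L1 (0.43 ± 0.07, adjusted p = 0.00316). CD3EAP, which encodes the partner of POLR1E, had 24.6 ± 1.07 after ASO-L1 and 18.9 ± 1.18 CPM after SO-L1 (0.38 ± 0.09, 0.00967), a call lost without replicate 1 (0.0948) or 3 (0.0527) of both groups. TBP, shared by all promoter complexes, had 32.3 ± 1.42 after ASO-L1 and 27.8 ± 1.29 CPM after SO-L1 (0.22 ± 0.08, 0.0590) and the termination factor gene TTF1 64.0 ± 2.88 after ASO-L1 and 55.8 ± 3.48 CPM after SO-L1 (0.20 ± 0.07, 0.0637). With the replicate block 5 of the 6 rose, TBP (0.0241) and TTF1 (0.0265) among them, where 23.3% of all genes did. Within SL1 the log2 fold changes were thus 0.43 for TAF1D, 0.22 for TBP, 0.13 for TAF1A, -0.11 for TAF1C and -0.22 for TAF1B, and their differences were not tested. Without both libraries numbered 1 or both numbered 3, 1 of the 6 rose, where 6.95% and 16.9% of all genes were called in either direction.

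Subunits shared by all 3 polymerases were mixed, with 1 of 5 higher (18% of all tested genes) and a median of 0.01. POLR2K rose, with 60.3 ± 10.3 CPM after ASO-L1 and 45.7 ± 3.02 CPM after SO-L1 (log2 fold change 0.40 ± 0.11, adjusted p = 0.0225), but not without SO-L1 replicate 1 (0.0569), 2 (0.0535) or 3 (0.0951). POLR2L (-0.15 ± 0.07, 0.131), POLR2F (0.17 ± 0.09, 0.159) and POLR2E (-0.07 ± 0.06, 0.395) did not pass. Of 7 subunits of RNA polymerase II, 3 rose and 0 fell (median 0.16), where 18% and 15.7% of all tested genes did. The 3 higher subunits are named next. These were POLR2B (0.26 ± 0.06, 0.00691), POLR2C (0.28 ± 0.07, 0.0138) and the catalytic POLR2A (0.27 ± 0.08, 0.0256), while POLR2D did not pass (0.16 ± 0.07, 0.0828). POLR2C was lost without SO-L1 replicate 3 (0.0689) and POLR2A without SO-L1 replicate 1 (0.0843). All 3 were lost without replicate 1 or 3 of both groups. In those fits 0 of 7 rose, and 6.95% and 16.9% of all genes were called in either direction.

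Of 21 genes of the RNA polymerase III machinery 4 rose and 4 fell (median 0.05), near the 18% and 15.7% of all tested genes that did. BDP1, a part of its initiation factor TFIIIB, fell to 62.0 ± 9.77 CPM after ASO-L1, against 102 ± 10.3 CPM after SO-L1 (log2 fold change -0.72 ± 0.12, adjusted p = 0.00296). GTF3C5 (0.36 ± 0.08, 0.0103) and GTF3C6 (0.34 ± 0.08, 0.0114), subunits of TFIIIC, and MAF1, a repressor of the polymerase (0.27 ± 0.07, 0.0146), rose. TFIIIC subunits moved both ways, since GTF3C4 (0.24 ± 0.07, 0.0187) rose but GTF3C3 (-0.31 ± 0.08, 0.0181) and GTF3C1 (-0.30 ± 0.10, 0.0411) fell. Without SO-L1 replicate 3, GTF3C5, GTF3C6 and MAF1 were not called (0.0534, 0.0504 and 0.0740), leaving 0 higher and 1 lower of 21. In that fit 17.5% of all genes were called in either direction. The counts were 3 higher and 1 lower without SO-L1 replicate 1, and 4 and 2 without ASO-L1 replicate 1. They were 1 and 1 without replicate 1 or replicate 3 of both groups. Without replicate 2 of both groups they were 10 and 5, and with the replicate block 7 and 5. In the same fits 18.6%, 25.9%, 6.95%, 16.9%, 41.7% and 45.7% of all genes were called in either direction, in the order given. The counts were thus low and high in broadly the same fits as those of all genes, but not in proportion to them.

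**Figure D3:**
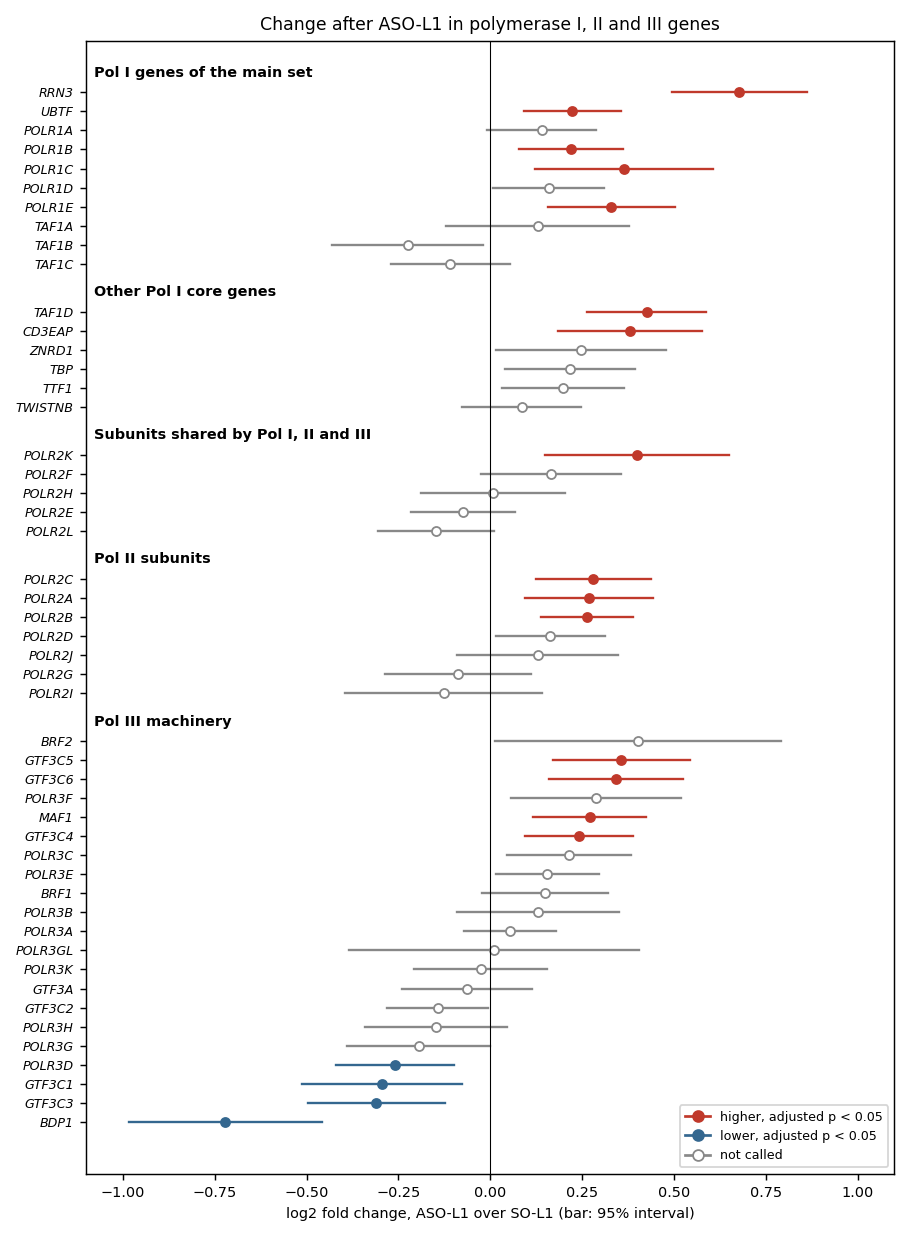
Log2 fold change, ASO-L1 over SO-L1 (x axis), with its 95% interval for the 10 genes, the other RNA polymerase I core genes, the shared subunits and the genes of RNA polymerases II and III. RRN3 lies at 0.68, TAF1B and TAF1C lie below 0, and BDP1 lies lowest at -0.72.

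Among cofactors of rDNA transcription 4 of 12 rose and 2 fell, with a median of 0.09, where 18% and 15.7% of all tested genes did. SIRT7, a deacetylase known as an activator of RNA polymerase I, had 35.1 ± 5.99 CPM after ASO-L1 and 18.2 ± 1.04 CPM after SO-L1 (log2 fold change 0.94 ± 0.12, adjusted p = 0.00145). PTRF, which encodes a protein of caveolae that also releases rDNA transcripts, had 243 ± 56.5 after ASO-L1 and 142 ± 6.97 CPM after SO-L1 (0.77 ± 0.14, 0.00593). ERCC6, a repair factor found at active rDNA, fell to 7.30 ± 0.518 CPM after ASO-L1, against 12.6 ± 1.99 CPM after SO-L1 (-0.79 ± 0.14, 0.00319), and so did the helicase gene DDX21 (-0.32 ± 0.08, 0.0132). DDX21 was lost without SO-L1 replicate 1 (0.0522) or 3 (0.0555). The higher count was 2 of 12 without ASO-L1 replicate 3, SO-L1 replicate 3, or replicate 1 or 3 of both groups. In these fits 31%, 17.5%, 6.95% and 16.9% of all genes were called in either direction, in the order given.

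In the list of rDNA silencing factors 3 of 9 rose and 2 fell (median -0.02), where 18% and 15.7% of all tested genes did. BAZ2A, also called TIP5, the large subunit of the nucleolar remodelling complex that silences rDNA repeats, had 204, 157 and 209 CPM after ASO-L1, against 281, 312 and 325 CPM after SO-L1. The groups were far apart, and its log2 fold change of -0.69 ± 0.11 (adjusted p = 0.00256) was as large in size as that of RRN3 and of opposite sign. BAZ2A was called under all 16 alternatives. SUV39H1, an H3K9 methyltransferase, rose (0.57 ± 0.09, 0.00282), a call lost without replicate 1 of both groups (0.0554). KDM2A, a histone demethylase, fell (-0.24 ± 0.06, 0.0158), but not without ASO-L1 replicate 1 (0.0700) or SO-L1 replicate 3 (0.0626). RRP8 passed (0.26 ± 0.09, 0.0452) but was lost without any single library, with adjusted p-values of 0.0569 to 0.171. The count of higher genes was 1 of 9 when any single library was left out, with library totals alone, with no filter and with DESeq2. With 1 library left out, 17.5% to 31% of all genes were called in either direction.

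Among the t-UTP proteins, which join rDNA transcription to the first steps of rRNA processing, 3 of 6 rose and 1 fell (median 0.17). Of all tested genes 18% rose and 15.7% fell. CIRH1A (0.41 ± 0.06, adjusted p = 0.00222), WDR43 (0.37 ± 0.07, 0.00398) and UTP15 (0.25 ± 0.07, 0.0200) rose and HEATR1 fell (-0.31 ± 0.09, 0.0284). UTP15 was lost without SO-L1 replicate 1 (0.0635) or 3 (0.0900) and HEATR1 without the same libraries (0.0705 and 0.117), which left 2 higher and 0 lower. In those fits 18.6% and 17.5% of all genes were called in either direction. WDR43 was lost without replicate 1 of both groups (0.0577), where 1 of 6 rose and 0 fell and 6.95% of all genes were called.

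The authors' deposited tables gave the same directions. In the authors' deposited table of comparisons the sign was that found here for all 10 genes, and 2 of the 10, RRN3 (log2 fold change 0.66, adjusted p = 0.00240) and POLR1E (0.31, 0.0275), had an adjusted p under 0.05 and were higher, where 11.7% of its 20964 genes were. UBTF (0.0566), POLR1C (0.0602) and POLR1B (0.0777) lay above that threshold in the authors' deposited table. In the authors' batch-corrected log2 values the groups did not overlap for 9 of the 10 genes, TAF1A being the exception, against 61.8% of all rows. RRN3 had log2 values of 6.73, 6.80 and 6.70 after ASO-L1 and 6.12, 6.02 and 6.15 after SO-L1 there. In those values SO-L1 replicate 2 was the lowest of its group, whereas it was the highest in CPM.

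Among 10147 other tested genes (average log2 CPM of 3 or more), SPEG, AZIN1 and CEP55 had the pattern most like RRN3 over the 6 libraries, with Pearson's r of log2 CPM of 0.9998, 0.9992 and 0.9991. The libraries fall into 2 separate groups, which alone gives a high r, so the values only describe a shared order of libraries. CEP55 had 59.4, 71.6 and 55.6 CPM after ASO-L1, against 36.4, 37.8 and 34.4 CPM after SO-L1.

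**Figure D4:**
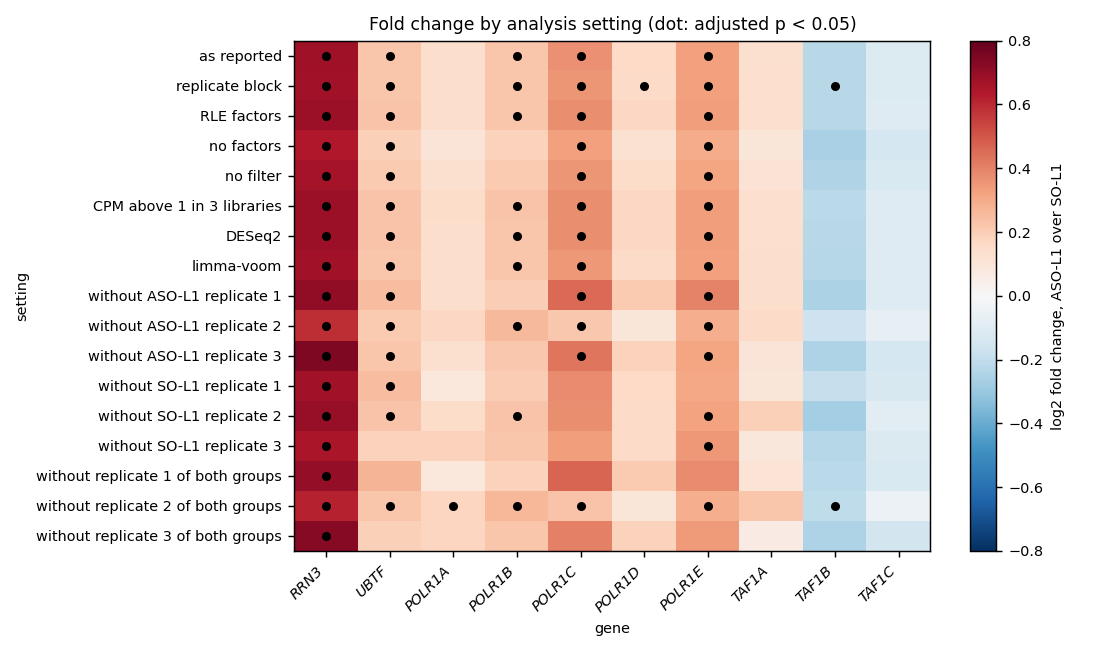
Log2 fold change, ASO-L1 over SO-L1 (colour scale), of the 10 genes (x axis) as reported and under 16 other analysis settings (y axis), with a dot where the adjusted p was under 0.05. RRN3 has a dot in every row, and no gene changes sign in any row.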

How the data were processed

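Poly(A) RNA-seq of 6 libraries (3 ASO-L1, 3 SO-L1) was analysed. The authors deposited raw read counts per gene symbol, with duplicates removed per the file title, which without molecular identifiers affects abundant genes most. The submitters' processing notes list hg19, Subread 1.5.0, featureCounts, TopHat2 2.0.13 and Trim Galore 0.4.0, without roles. Annotation and strand setting: not given in the sources used here. The authors' deposited comparison table holds log2 fold changes, t and log-odds scores and p-values, per the file headers, from an unstated model. Their deposited log2 values are batch-corrected, per the file title.

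Counts were tested with edgeR 4.0.16 in R 4.3.3 (filterByExpr, minimum count 10 and total 15, TMM factors, robust quasi-likelihood fit). The code was tested on simulated data. An SE is the unshrunken log2 fold change over the square root of F, and intervals are 95%. The common biological coefficient of variation was 10.2%. Likeness and pairing used log2 CPM with a prior count of 2. Deviations from the group means correlated between same-numbered libraries (0.102, 0.377 and 0.211), which were taken as pairs, but ASO-L1 replicate 1 correlated more with SO-L1 replicate 3 (0.162), and ASO-L1 replicate 3 with SO-L1 replicate 1 at 0.156, so numbers 1 and 3 are not settled. Libraries of a group differed beyond sampling noise (chi-square per degree of freedom 2.05 to 24.4).

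The 10 genes and all lists were chosen with earlier results of these data known. Named are all 10, up to 4 genes of smallest p per other list, the pseudogene copies, 3 genes most like RRN3 and identity markers. The other called TFIIIC subunits are named as well. The summed reads of RRN3 and its copies were added after the data were seen. Alternatives were the block, other scalings and filters, DESeq2 1.42.0, limma-voom (limma 3.58.1) and leaving out libraries. Promoters are RefSeq's for GRCh38.p14, and exon lengths were joined by gene name, so no hg19 coordinate was mixed.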

Additional observations from a re-analysis of the deposited data

How the results depend on the processing

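Over 16 alternatives the 10 genes gave 160 comparisons with the reported calls. In these no direction changed, 137 kept their side of the threshold, 19 lost a call (UBTF, POLR1B, POLR1C and POLR1E) and 4 gained one (POLR1A, POLR1D and TAF1B). RRN3 kept its call in all 16. Leaving out 1 library gave 2 to 5 called members, where 5 were reported, and 2975 to 5322 called genes in all, where 5684 were. Leaving out both libraries of number 1, 2 or 3 gave 1, 7 and 1 called members and 1183, 7197 and 2820 called genes. These fits had fewer libraries, but the fit without number 2 called more members and genes than the 5 and 5684 reported. Why the counts moved was not tested. With the replicate block 7 members and 7719 genes were called, and no member lost its call. DESeq2, limma-voom, RLE factors and a filter at a CPM above 1 in 3 libraries each called 5 members, and library totals alone or no filter called 4. The median log2 fold change of all genes lay between -0.05 (library totals alone) and 0.03 (no filter). For 30 other named genes (up to 4 per list and the tested pseudogene copies) no direction changed in the same 16 alternatives. Groups of 3 libraries were not tested for outlying samples.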
